A study of Mus musculus with 28 samples.

Results

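The question addressed here is whether daily RGFP966, which inhibits histone deacetylase 3 (HDAC3), altered how the mouse retina responded to crush of its optic nerve. For each mouse the crush response of a gene was taken as its log2 normalized count in the crushed eye minus that in the uncrushed eye, and these responses were compared between 7 RGFP966 mice and 6 vehicle mice. Of the 28 libraries of the series, the 26 from these 13 mice were used, and of the 35999 genes in the table, the 15773 whose normalized counts averaged 10 or more were compared. No gene passed the test of a difference in response after adjustment over all genes, so what follows describes the size of the response and the genes whose responses lay farthest apart.

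Optic nerve crush injures the axons of retinal ganglion cells, the neurons that carry the output of the retina to the brain, and many of these cells later die. Müller glia and retinal astrocytes become reactive, microglia expand and change state, and interferon-stimulated genes and genes of antigen presentation are commonly induced. Histone deacetylases remove acetyl groups from histones and other proteins, and HDAC3 acts within the NCoR and SMRT corepressor complexes, where it takes part in the control of inflammatory genes.

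Polyadenylated RNA of whole retina was sequenced from both eyes of each mouse. RGFP966 mice (3 females, 4 males) had received 10 mg/kg of the compound and vehicle mice (2 females, 4 males) the carrier, in both cases by daily intraperitoneal injection over 7 days, and retinas were taken 7 days after crush. The crushed eye (ONC) was always the right and the intact eye (CTRL) the left, so side and crush cannot be told apart, and every animal carried a crush, so that no group is free of it. The injection was systemic, so the uncrushed eyes are also of treated animals, and neither a genotype nor an age is given in the sources used here.

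The sum of normalized counts ran from 17700000 to 21900000 over the libraries (median 18750000), with 19160 to 20195 genes above 0. Rod, cone, bipolar, amacrine, Müller glia and ganglion cell markers were all present, with every listed marker of these types passing the filter on the mean, so the libraries carried the RNA of whole retina. One uncrushed RGFP966 library, of female A, is described in free text as crushed, while its title and condition say uncrushed. Its mouse had a *Nefl* response of -2.18 and a *Gfap* response of 1.64, with the sign seen in all other mice, and the title was used.

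Responses of crush-changed genes lay close together in the 2 treatments. Averaged over RGFP966 and vehicle mice with equal weight, 1017 genes rose (6.45% of genes tested) and 677 fell (4.29%) at a limma adjusted p under 0.05. Across these 1694 genes the mean responses of RGFP966 and vehicle mice had a Pearson r of 0.949, and 0 of them had opposite signs in the 2 treatments. These responses share no library, although genes are not independent replicates. All 1694 were chosen for their average response, which by itself favours equal signs and a high r. Over all 15773 genes tested, 4773 had opposite signs in the 2 treatments. Rescaling each library to the same total gave 2147 crush-changed genes of which 86.4% rose, against 60.0% here, so the balance of rises and falls depends on the scaling.

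**Figure D1:**
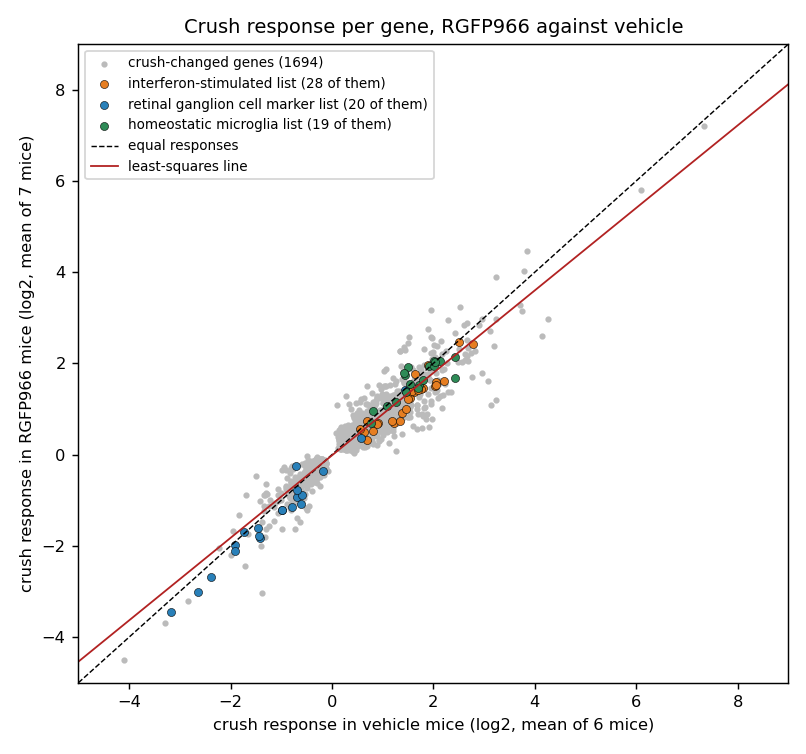
Mean crush response of the 1694 crush-changed genes in vehicle mice (x axis, log2, 6 mice) and RGFP966 mice (y axis, log2, 7 mice), with members of 3 gene lists in colour, the line of equal responses dashed and the least-squares line (slope 0.904) in red. Points lie along the line of equal responses (r = 0.949), with interferon-stimulated genes mostly below it.

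Limma called 0 genes whose response was higher in RGFP966 mice (0% of genes tested) and 0 whose response was lower (0%), and the smallest adjusted p was 0.9997. Before adjustment, 146 genes (0.926%) had a higher response and 154 (0.976%) a lower response at p under 0.05, which together make 1.90% of genes tested. By chance alone a share of about 0.05 of genes would reach such a p, more than was seen. With each library rescaled to the same total there were 346 such genes, of which 93 had a higher response, so this balance too depends on the scaling. All p-values given for single genes below are unadjusted, exact, two-sided permutation p-values over the 13 mice, with 1716 ways to assign the treatments and 0.000583 as the smallest value possible. None of them passes an adjustment over all genes. The median 95% interval of a difference of responses reached 0.39 log2 units to either side over all genes tested and 0.34 over the 12859 genes with a mean of at least 50, so that differences within that range were not resolved for a typical gene.

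Crush-changed genes tended to move somewhat less in RGFP966 mice, part of which the choice of genes may bring about. The vehicle mean rests on 6 mice and the RGFP966 mean on 7. Choosing genes by the average of both therefore favours those with an overstated vehicle response, and the size of this effect was not tested. The response was smaller in size in RGFP966 than in vehicle mice for 1075 of the 1694 genes (63.5%), against 8646 of all 15773 genes tested (54.8%), and the median ratio of the RGFP966 to the vehicle response was 0.893. Among genes that rose with crush, the median response was 0.58 in RGFP966 mice and 0.66 in vehicle mice. Of these 1017 genes, 5 had a higher and 34 a lower response at an unadjusted p under 0.05, beside 0.926% and 0.976% of all genes tested. Among genes that fell, the medians were -0.27 in RGFP966 mice and -0.30 in vehicle mice. Single mice overlapped widely: over the 294 genes that rose at least 2-fold, the median response of a mouse ran from 1.19 to 1.82 (median 1.48) in RGFP966 mice, against 1.30 to 1.95 (median 1.63) in vehicle mice. The 47 genes that fell at least 2-fold did not share the trend, with a median of -1.56 in RGFP966 mice and -1.34 in vehicle mice, and 16 of 47 moving less under RGFP966. The ratio differed between fits with 1 sex alone. With females alone the median ratio was 0.833 and 70.8% of crush-changed genes moved less under RGFP966, whereas with males alone the ratio was 1.0 and the share 50.2%. The difference between the sexes was not tested, and 2 of the 5 females were vehicle mice. There were 4 males in each treatment, so sex and the balance of group sizes cannot be told apart here.

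Many genes of reactive glia rose with crush on average over both treatments. Of the 12 tested genes of the pan-reactive astrocyte list, 9 rose on average, and the median over the 12 genes of their mean response was 0.79 in RGFP966 mice and 1.18 in vehicle mice. The per-mouse median over the same genes did not show this gap, at 0.65 to 1.33 (median 1.09) in RGFP966 mice, against 0.70 to 1.38 (median 1.01) in vehicle mice. Their median difference of responses was -0.22, with 9 members lower and 3 higher in RGFP966 mice, beside a median of -0.0011 over all genes tested. Of all genes tested, 7931 had a lower and 7842 a higher response in RGFP966 mice, while 6.45% rose and 4.29% fell with crush on average. These values are the background for the member counts of every list below. In bulk RNA, fewer cells of a type and less RNA per cell cannot be told apart, here and for every list below.

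*Gfap*, the intermediate filament of reactive glia (GRCm38 chr11:102887336-102900912), was the pan-reactive gene with an unadjusted limma p under 0.05. RGFP966 mice had 908 to 1356 (median 1108) normalized counts in crushed eyes and 173 to 362 (median 266) in uncrushed eyes. Vehicle mice had 1085 to 2131 (median 1524) in crushed and 130.1 to 333 (median 263) in uncrushed eyes. The crush response of *Gfap* ran from 1.33 to 2.68 (median 2.12) in RGFP966 mice, against 1.94 to 3.25 (median 2.79) in vehicle mice. The vehicle mice were the higher group, with ranges that overlapped over most of their length. The difference of responses was -0.64 (95% interval -1.16 to -0.12, exact permutation p = 0.0536), and it was -0.44 between treatments in crushed eyes and 0.20 in uncrushed eyes. In females it was -1.10 and in males -0.34.

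Other glial genes had intervals that held or touched 0. *Fgf2*, a growth factor raised in injured retina, responded by 1.85 in RGFP966 mice and 2.16 in vehicle mice, a difference of -0.32 (95% interval -0.63 to -0.00, exact permutation p = 0.0763). *Vim*, a second glial intermediate filament, differed by -0.16 (95% interval -0.39 to 0.07, exact permutation p = 0.168). *Edn2*, the endothelin induced by photoreceptor and ganglion cell injury, responded by 3.28 in RGFP966 mice and 3.71 in vehicle mice, with a difference of -0.44 (95% interval -1.19 to 0.32, exact permutation p = 0.34). *Stat3*, the transcription factor downstream of gp130 cytokines, responded by 1.22 in RGFP966 mice and 1.09 in vehicle mice, with an interval of the difference of -0.09 to 0.34. *Osmr*, a receptor of that cytokine family, differed by 0.07 (95% interval -0.38 to 0.52, exact permutation p = 0.759), and the sign turned to -0.17 in males alone. *Lcn2*, an iron-carrier-binding protein of inflamed glia, did not pass the test of the average response (adjusted p = 0.337) and differed by -0.47 (95% interval -1.09 to 0.16, exact permutation p = 0.173).

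*Serpina3n*, a secreted protease inhibitor and astrocyte marker, went the other way. Across RGFP966 mice it reached 181 to 523 (median 365) normalized counts in crushed eyes and 39.5 to 108 (median 45.1) in uncrushed eyes. The vehicle group had 264 to 861 (median 540.4) in crushed and 84.8 to 923 (median 117) in uncrushed eyes. The crush response ran from 1.26 to 3.19 (median 2.37) in RGFP966 mice, against -1.12 to 3.03 (median 1.66) in vehicle mice. One vehicle male, A, had the highest level of all uncrushed eyes and was the only mouse with a negative response. The difference was 0.95 (95% interval -0.13 to 2.03, exact permutation p = 0.143). Without vehicle male A it was 0.43, and in females alone -0.61, so neither its size nor its sign was stable. *C3*, the central complement protein, had a difference of -0.29 (95% interval -1.78 to 1.21, exact permutation p = 0.735), an interval wide enough to hold a large change in either direction.

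The Müller gliosis list of 19 tested genes, of which 16 rose and 1 fell with crush, had a median difference of -0.13, with 11 members lower and 8 higher, and it ranged from -0.28 to -0.06 when 1 mouse was left out. *Bcl3*, an IκB family regulator of NF-κB, had the largest difference in that list at -1.53 (95% interval -3.10 to 0.05, exact permutation p = 0.111), which was -0.96 without vehicle male B. The neuroinflammatory reactive astrocyte list of 13 genes had 10 lower and 3 higher, with a median of -0.24. It had 2 members lower at an unadjusted limma p under 0.05 (*Gbp2* and *H2-T23*), beside 0.976% of all genes tested. Leaving out vehicle female A brought that median to -0.05. *Pdgfra*, a marker of retinal astrocytes, differed by -0.65 (95% interval -1.28 to -0.01, exact permutation p = 0.074), by -1.63 in females and by 0.01 in males.

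**Figure D2:**
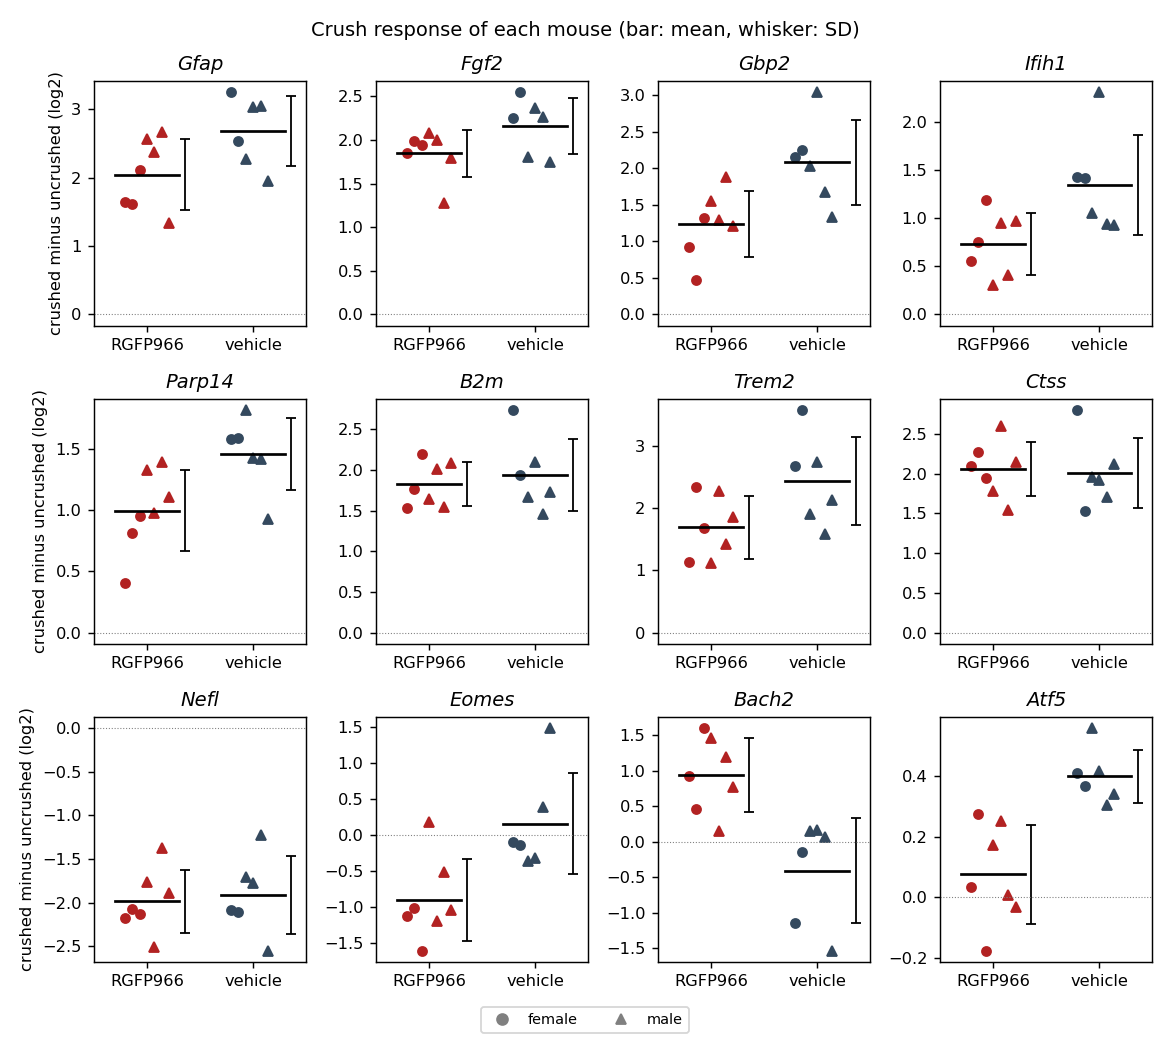
Crush response of each mouse (y axis, crushed minus uncrushed eye, log2) for 12 genes in RGFP966 mice (red, left) and vehicle mice (dark, right), with circles for females, triangles for males, a bar at the mean and a whisker of 1 SD. *Gbp2* lies between 0.47 and 1.88 in RGFP966 mice and between 1.34 and 3.04 in vehicle mice, while *Ctss* and *Nefl* overlap fully and *Atf5* not at all.

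Most interferon-related genes rose with crush on average over both treatments, and most had a lower response in RGFP966 mice. Of the 33 tested genes, 28 rose with crush on average. The response was lower in RGFP966 mice for 28 and higher for 5, with a median response of 1.0 in RGFP966 mice and 1.46 in vehicle mice and a median difference of -0.29. Leaving out female A of either treatment brought that median to -0.19. At an unadjusted limma p under 0.05, 4 of the 33 were lower, beside 0.976% of all genes tested. They were *Ifih1*, *Parp14*, *Ifit2* and *Irf9*, where *Ifit2* and *Irf9* are named after their values were seen. In the list of interferon-induced GTPases, proteins that attack vacuoles holding pathogens, 12 of 14 tested genes rose with crush. There, 12 members were lower and 2 higher, with a median difference of -0.36. At an unadjusted p under 0.05, 5 of the 14 were lower, again beside 0.976% of all genes tested. They were *Gbp2*, *Gbp3*, *Gbp6*, *Gvin1* and *Tgtp1*, of which *Gbp3*, *Gbp6* and *Gvin1* are named after their values were seen. Members of a list are not independent replicates. Taken per mouse, the median response over the interferon-stimulated genes ran from 0.43 to 1.67 (median 1.11) in RGFP966 mice, against 1.02 to 1.58 (median 1.16) in vehicle mice. RGFP966 females A and B, at 0.43 and 0.73, and RGFP966 male C, at 0.84, lay below all vehicle mice, while RGFP966 female C lay above all of them. The median difference was -0.58 in females and -0.20 in males for the interferon-stimulated genes, and -0.68 in females and -0.34 in males for the GTPases.

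These genes are shown with their promoters because most members of the interferon lists, known to share interferon-response elements, had a lower response in RGFP966 mice. The windows run from 250 bases before to 50 after the annotated start (RefSeq, GRCm38.p6), on the gene's strand, and capitals mark matches on either strand to GAAANNGAAA, an interferon-stimulated response element (ISRE), or TTCNNNGAA, a gamma-activated site (GAS) bound by STAT factors. *Gbp2* (chr3:142620413-142620712, plus strand) and *Tgtp1* (chr11:48992197-48992496, minus strand) are GTPases, *Ifih1* (chr2:62646206-62646505, minus strand) encodes the RNA sensor MDA5, and *Gfap* (chr11:102897151-102897450, minus strand) stands for the glial response.
Gbp2: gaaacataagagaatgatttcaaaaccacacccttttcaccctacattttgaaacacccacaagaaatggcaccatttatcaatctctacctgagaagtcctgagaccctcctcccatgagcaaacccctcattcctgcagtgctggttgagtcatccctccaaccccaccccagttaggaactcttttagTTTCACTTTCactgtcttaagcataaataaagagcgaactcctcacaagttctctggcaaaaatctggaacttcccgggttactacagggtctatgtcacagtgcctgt
Tgtp1: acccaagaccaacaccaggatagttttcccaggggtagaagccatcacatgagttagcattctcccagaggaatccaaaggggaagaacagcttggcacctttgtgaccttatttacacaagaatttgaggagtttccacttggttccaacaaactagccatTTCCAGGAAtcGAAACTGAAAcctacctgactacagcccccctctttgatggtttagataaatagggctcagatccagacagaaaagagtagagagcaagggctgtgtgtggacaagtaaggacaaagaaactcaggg
Ifih1: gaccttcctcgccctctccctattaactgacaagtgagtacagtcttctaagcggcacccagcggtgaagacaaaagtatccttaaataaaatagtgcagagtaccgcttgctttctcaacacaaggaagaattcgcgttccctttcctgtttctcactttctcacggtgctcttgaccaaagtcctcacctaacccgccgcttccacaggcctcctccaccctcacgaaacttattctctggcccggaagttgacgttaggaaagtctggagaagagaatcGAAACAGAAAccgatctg
Gfap: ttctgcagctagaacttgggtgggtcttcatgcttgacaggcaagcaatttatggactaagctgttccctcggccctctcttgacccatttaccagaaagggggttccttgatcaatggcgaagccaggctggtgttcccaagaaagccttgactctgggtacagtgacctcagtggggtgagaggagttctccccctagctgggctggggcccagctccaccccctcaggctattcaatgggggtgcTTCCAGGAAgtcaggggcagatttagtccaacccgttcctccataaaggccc
The *Gbp2* match begins 59 bases before the start site and is an ISRE, as is that of *Ifih1*, which lies after the start. *Tgtp1* has a GAS match at 88 and an ISRE match at 77 bases before the start, and *Gfap* a GAS match alone. For the GTPase list, 9 of 14 tested genes had windows in the table, and 9 of their 10 windows (90%) held an ISRE and 6 (60%) a GAS. For interferon-stimulated genes, 22 of 33 were matched, and 14 of 25 windows (56%) held an ISRE and 5 (20%) a GAS. For MHC class I genes, 16 of 19 were matched, with an ISRE in 5 of 18 windows (27.8%) and a GAS in 1 (5.56%). Among all 32851 windows of the table, 3.44% held an ISRE and 8.3% a GAS. An ISRE lay in 14.3% of ganglion cell marker windows, 7.69% of pan-reactive astrocyte windows and 0% of Müller gliosis windows. *Atf5* and *Pbxip1*, also lower in response, held neither motif, and *Bach2*, higher in response, held a GAS. The interferon lists are made of interferon-induced genes, so their high ISRE shares were likely in advance and say nothing about RGFP966. The 2 motifs can overlap, and a match here is a description of the letters only.

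*Gbp2*, a guanylate-binding protein induced by interferon and also listed for neuroinflammatory astrocytes (GRCm38 chr3:142620602-142638008), had the smallest limma p of these genes. The RGFP966 group had 133 to 205 (median 198) normalized counts in crushed eyes and 54.7 to 95.6 (median 83.7) in uncrushed eyes. Across vehicle mice the values were 159.7 to 405 (median 205) in crushed and 42.2 to 62.6 (median 49.2) in uncrushed eyes. The response ran from 0.47 to 1.88 (median 1.29) in RGFP966 mice, against 1.34 to 3.04 (median 2.09) in vehicle mice. The 2 highest RGFP966 mice lay within the range of the vehicle mice and the others below it. The difference was -0.84 (95% interval -1.42 to -0.27, exact permutation p = 0.0105), made up of -0.24 between treatments in crushed eyes and 0.60 in uncrushed eyes. The larger part thus lay in the uncrushed eyes, where the RGFP966 mice reached higher. The difference of responses was -1.30 in females and -0.54 in males.

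*Ifih1* showed the same arrangement. In RGFP966 mice it had 142 to 259 (median 209) normalized counts in crushed eyes and 107 to 153 (median 114) in uncrushed eyes. In vehicle mice these were 212 to 338 (median 224) in crushed and 67.4 to 119 (median 93.8) in uncrushed eyes. Its response ran from 0.31 to 1.19 (median 0.75) in RGFP966 mice, against 0.93 to 2.31 (median 1.24) in vehicle mice. Vehicle male B stood above the rest, and the remaining mice of both groups overlapped between 0.93 and 1.19. The difference was -0.61 (95% interval -1.10 to -0.12, exact permutation p = 0.0169), with -0.24 in crushed and 0.37 in uncrushed eyes. *Parp14*, an ADP-ribosyltransferase of the interferon response, differed by -0.46 (95% interval -0.85 to -0.08, exact permutation p = 0.0221), with -0.18 in crushed and 0.28 in uncrushed eyes. *Tgtp1*, at a mean of only 19.2 normalized counts and with a near-identical neighbour, *Tgtp2*, between which reads may be split, differed by -1.80 (95% interval -3.12 to -0.49, exact permutation p = 0.0198).

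For the GTPases the median difference between RGFP966 and vehicle was -0.22 in crushed eyes and 0.17 in uncrushed eyes, and for MHC class I genes -0.11 in crushed and 0.14 in uncrushed eyes. For interferon-stimulated genes it was -0.18 in crushed and 0.03 in uncrushed eyes. These 2 values share libraries with the difference of responses and are its parts.

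The MHC class I list, which includes the peptide transporters and immunoproteasome, had 15 of 19 genes raised by crush, with a median response of 0.73 in RGFP966 mice and 1.20 in vehicle mice. The difference was negative for 17 and positive for 2 genes, with a median of -0.16. With 1 mouse left out this median ran from -0.26 without RGFP966 female B to -0.11 without RGFP966 male A. *Nlrc5*, the transactivator of MHC class I genes, had the largest difference of the list. RGFP966 mice had 46.5 to 113 (median 68.6) normalized counts in crushed eyes and 4.98 to 74.3 (median 26.3) in uncrushed eyes. Vehicle mice had 58.6 to 172 (median 99.4) in crushed and 4.38 to 18.6 (median 13.1) in uncrushed eyes. Its response ran from 0.11 to 3.43 (median 1.30) in RGFP966 mice, against 1.69 to 3.93 (median 3.30) in vehicle mice. The 3 RGFP966 females had responses of 0.11, 0.24 and 0.26, against 3.93 and 3.45 in the vehicle females, while males of the 2 treatments overlapped. Their uncrushed eyes held 63.7, 64.7 and 74.3 normalized counts in the RGFP966 females, against 9.86 and 9.42 in the vehicle females, and the other uncrushed eyes held at most 26.3. The difference was -1.47 (95% interval -2.73 to -0.20, exact permutation p = 0.0624), or -3.48 in females and -0.11 in males. *H2-T23*, a nonclassical class I gene, differed by -0.59 (95% interval -1.17 to -0.02, exact permutation p = 0.0752). *B2m*, the invariant light chain, responded by 1.83 in RGFP966 mice and 1.94 in vehicle mice, with an interval of the difference of -0.49 to 0.27. *Cxcl10*, an interferon-induced chemokine, had a mean of only 12.5 and a difference of -1.29 (95% interval -3.05 to 0.46, exact permutation p = 0.163). Class II genes, by contrast, had a median difference of 0.37 with 6 of 9 members higher and 0 at an unadjusted limma p under 0.05. Leaving out vehicle male B brought it to 0.05, and it was -0.11 in females.

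**Figure D3:**
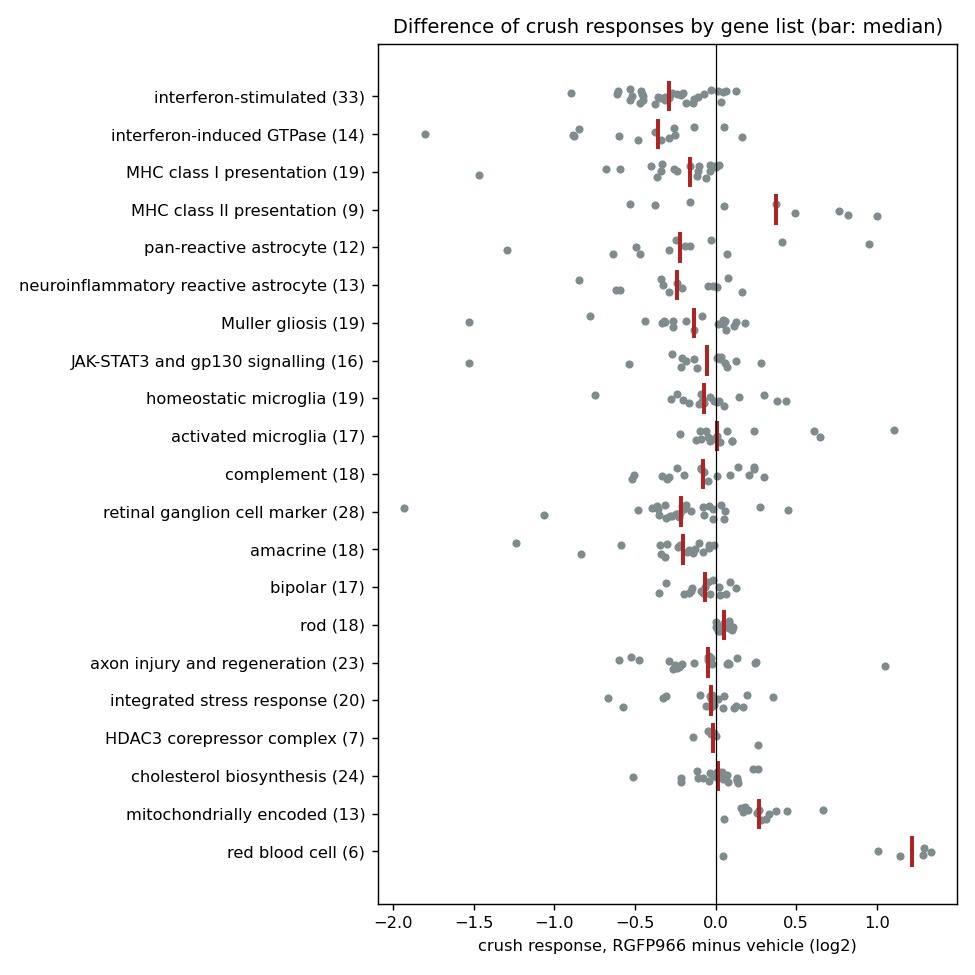
Difference of crush responses (x axis, RGFP966 minus vehicle, log2) of each tested member of 21 gene lists, with a red bar at the list median and the number of members in brackets. The medians of the interferon-stimulated (-0.29) and GTPase (-0.36) lists lie farthest left of 0. Those of MHC class II (0.37), mitochondrially encoded (0.27) and red blood cell genes (1.22) lie farthest right, and the others between -0.24 and 0.05.

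Microglial genes had medians that lay close together in the 2 treatments. All 19 tested homeostatic microglia genes rose with crush, beside 6.45% of all genes tested. Their median response was 1.69 in RGFP966 mice and 1.70 in vehicle mice, and the median difference was -0.07. Mouse by mouse the median ran from 1.27 to 2.12 in RGFP966 mice, against 1.29 to 1.96 in vehicle mice. The activated microglia list, with 15 of 17 genes raised, had a median difference of 0.01, and the complement list, with 13 of 18 raised, of -0.08. *Ctss*, the lysosomal cathepsin S, differed by 0.05 (95% interval -0.35 to 0.46, exact permutation p = 0.81), an interval that leaves room for a change of up to about 0.46 log2 units. *Aif1*, which encodes IBA1, differed by 0.44 (95% interval -0.47 to 1.34, exact permutation p = 0.333), and *Clec7a*, the receptor dectin-1 of activated microglia, by 0.65 (95% interval -0.51 to 1.80, exact permutation p = 0.306), with -0.88 in females and 1.47 in males. *C4b*, a complement component made by glia, differed by -0.33 (95% interval -0.95 to 0.28, exact permutation p = 0.377).

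*Trem2*, a lipid-sensing receptor of microglia, was the microglial gene at an unadjusted limma p under 0.05. Across RGFP966 mice it reached 92.0 to 153 (median 126) normalized counts in crushed eyes and 21.7 to 61.8 (median 34.1) in uncrushed eyes. The vehicle group had 74.7 to 211 (median 137) in crushed and 11.9 to 47.4 (median 23.4) in uncrushed eyes. Its response ran from 1.11 to 2.34 (median 1.68) in RGFP966 mice, against 1.59 to 3.57 (median 2.40) in vehicle mice. The groups overlapped, vehicle female C being highest. The difference was -0.75 (95% interval -1.44 to -0.05, exact permutation p = 0.0472), again with more of it in uncrushed eyes (0.65) than in crushed eyes (-0.10). *Olfml3*, a secreted protein of homeostatic microglia, went the other way at 0.38 (95% interval -0.04 to 0.80, exact permutation p = 0.0822). *Gpnmb*, a glycoprotein of lipid-laden phagocytes that pigment cells also express, differed by 1.11 (95% interval -0.42 to 2.64, exact permutation p = 0.26), with vehicle male A at -3.29 and a difference of 0.34 without that mouse.

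Most ganglion cell markers fell with crush on average over both treatments, and a pair of mice moved their difference. Of 28 tested markers, 18 fell and 2 rose with crush, with a median response of -0.97 in RGFP966 mice and -0.69 in vehicle mice, and the difference was negative for 23 and positive for 5 (median -0.22, or -0.09 without RGFP966 male B and -0.06 without vehicle male C). Per mouse, the median response ran from -1.31 to -0.48 (median -0.90) in RGFP966 mice, against -1.20 to -0.11 (median -0.81) in vehicle mice. Vehicle males C and D, at -0.11 and -0.21, stood apart from the other 11 mice. Without this pair, a choice made after seeing the data, the median difference of the list was 0.03. The pair was picked for its high medians, so leaving it out was bound to raise the difference of lists high in it. RGFP966 male C, with the highest ganglion cell median of its group (-0.48), was kept, so these values do not show what accounts for the differences. The same pair had the highest bipolar medians, at 0.38 and 0.74, and amacrine medians of 0.92 and 0.78, with RGFP966 male C between them at 0.83. The part of this shift in the neuronal lists was not tested. All 18 amacrine genes had a negative difference (median -0.20), which became -0.00 without the pair, and all 18 rod genes a positive one (median 0.05), which became -0.07.

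Among single ganglion cell markers, *Nefl*, the neurofilament light chain, had a response that ran from -2.51 to -1.37 (median -2.07) in RGFP966 mice, against -2.55 to -1.23 (median -1.93) in vehicle mice. The ranges coincided, and the difference was -0.08 (95% interval -0.48 to 0.33, exact permutation p = 0.735). *Rbpms*, an RNA-binding protein found in all ganglion cells, responded by -1.69 in RGFP966 mice and -1.73 in vehicle mice, and *Pou4f1*, the transcription factor BRN3A, by -2.69 in RGFP966 mice and -2.38 in vehicle mice. Their differences were 0.04 (95% interval -0.53 to 0.60, exact permutation p = 0.906) and -0.31 (95% interval -1.19 to 0.57, exact permutation p = 0.526).

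*Eomes*, a transcription factor of intrinsically photosensitive ganglion cells, had a lower response in most RGFP966 mice. The RGFP966 group had 18.1 to 55.3 (median 35.2) normalized counts in crushed eyes and 40.0 to 95.1 (median 73.1) in uncrushed eyes. Across vehicle mice the values were 39.5 to 63.6 (median 44.0) in crushed and 15.8 to 79.7 (median 44.1) in uncrushed eyes. The response ran from -1.60 to 0.19 (median -1.03) in RGFP966 mice, against -0.36 to 1.49 (median -0.11) in vehicle mice. All RGFP966 mice but male A had a negative response, while 2 vehicle males had a positive one. The difference was -1.06 (95% interval -1.80 to -0.32, exact permutation p = 0.00874), and -0.67 without vehicle males C and D, which had the highest responses. *Atoh7*, the developmental factor for ganglion cells, was near the limit of the filter with a mean of 12 and was 1 of the 3 genes whose RGFP966 mice lay below every vehicle mouse, with a difference of -1.93 (95% interval -3.04 to -0.82, exact permutation p = 0.00175). Among amacrine genes, *Th*, the rate-limiting enzyme of dopamine synthesis, differed by -1.23 (95% interval -2.10 to -0.37, exact permutation p = 0.00583) at a mean of 26.7, and *Chat*, the acetylcholine-synthesizing enzyme of starburst cells, by -0.83 (95% interval -1.50 to -0.16, exact permutation p = 0.0309). Their mean responses were -0.26 and -0.31 in RGFP966 mice, against 0.97 and 0.52 in vehicle mice.

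Of the 23 tested genes of the axon injury list, 13 were raised and 1 was lowered by crush on average over both treatments. The list had a median difference of -0.05. *Ecel1*, a protease strongly induced in damaged neurons, responded by 7.20 in RGFP966 mice and 7.33 in vehicle mice, with a difference of -0.13 (95% interval -1.34 to 1.08, exact permutation p = 0.857). *Sprr1a*, a regeneration-associated protein, responded by 5.81 in RGFP966 mice and 6.09 in vehicle mice, with a difference of -0.29 (95% interval -1.62 to 1.05, exact permutation p = 0.666). *Sox11* and *Atf3*, injury-induced transcription factors, had differences of -0.25 (95% interval -0.94 to 0.44, exact permutation p = 0.484) and 0.14 (95% interval -0.39 to 0.67, exact permutation p = 0.627). *Vgf*, a secreted neuropeptide precursor, had a difference of -0.47 (95% interval -1.0 to 0.05, exact permutation p = 0.134).

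*Atf5*, a transcription factor of the integrated and mitochondrial stress responses (GRCm38 chr7:44812256-44816658), was a gene whose crush response was nearly absent under RGFP966. In RGFP966 mice it had 387 to 517 (median 419) normalized counts in crushed eyes and 353 to 462 (median 397) in uncrushed eyes. In vehicle mice these were 453 to 556 (median 481) in crushed and 337 to 416 (median 362) in uncrushed eyes. The response ran from -0.18 to 0.27 (median 0.03) in RGFP966 mice, against 0.31 to 0.56 (median 0.39) in vehicle mice. Every RGFP966 mouse lay below every vehicle mouse, an arrangement found in 3 genes (0.019% of genes tested), *Ncan* and *Atoh7* being the others, named after their values were seen. Chance assignment of the treatments gives any gene this arrangement with a probability of 0.000583, a larger share than was found. The difference of *Atf5* was -0.32 (95% interval -0.56 to -0.09, exact permutation p = 0.00175), with -0.19 between treatments in crushed eyes and 0.13 in uncrushed eyes, and it was -0.34 in females and -0.31 in males. The integrated stress response list did not move with it, at a median difference of -0.03 over 20 genes, 12 lower and 8 higher. *Mthfd2*, a mitochondrial folate enzyme of that list, differed by -0.58 (95% interval -1.05 to -0.10, exact permutation p = 0.0256), by -1.29 in females and -0.15 in males. *Ncan*, the proteoglycan neurocan, differed by -0.49 (95% interval -0.91 to -0.08, exact permutation p = 0.00117).

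**Figure D4:**
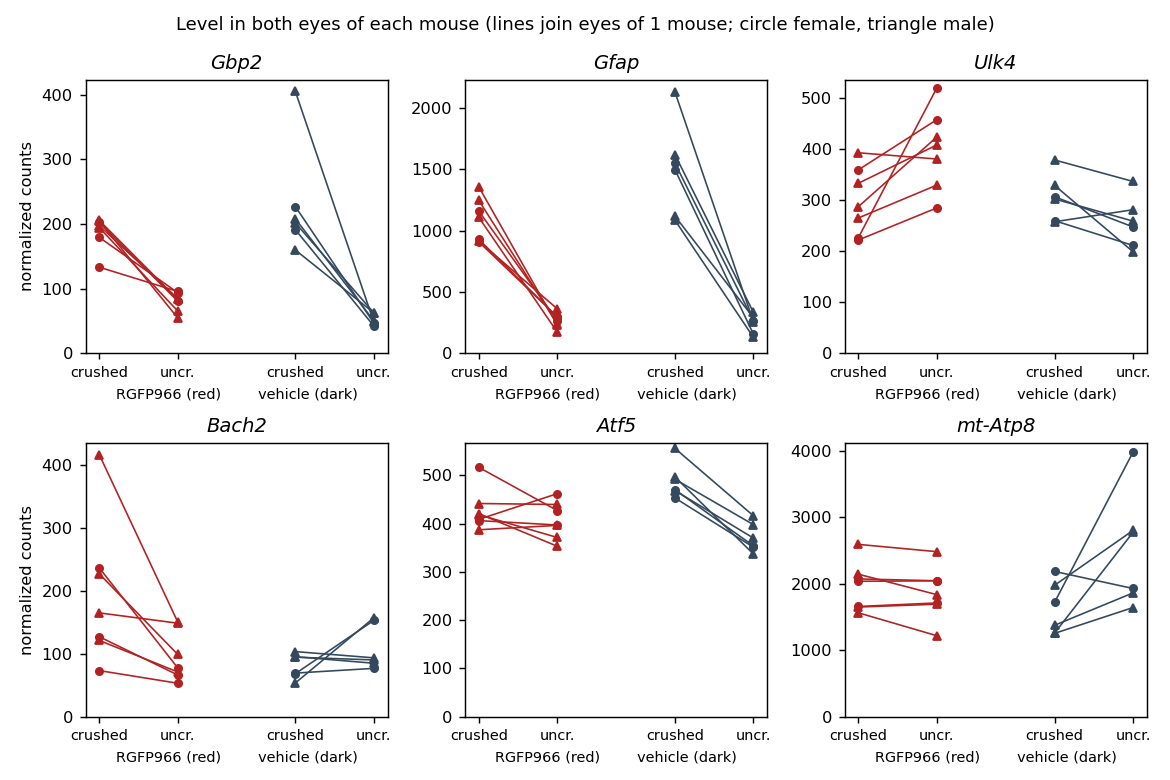
Normalized counts (y axis, linear, from 0) of 6 genes in the crushed and uncrushed eye of each mouse, RGFP966 mice in red on the left and vehicle mice in dark on the right, with a line joining both eyes of 1 mouse. *Atf5* rises with crush in all 6 vehicle mice, and *Bach2* is higher in the crushed eye of all 7 RGFP966 mice.

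*Bach2*, a transcriptional repressor best known from lymphocytes (GRCm38 chr4:32238804-32586108), had the smallest limma p in the direction of a higher response. RGFP966 mice had 73.2 to 417 (median 165) normalized counts in crushed eyes and 53.1 to 151 (median 77.5) in uncrushed eyes. Vehicle mice had 53.5 to 103 (median 81.8) in crushed and 76.7 to 157 (median 91.8) in uncrushed eyes. The response ran from 0.15 to 1.60 (median 0.93) in RGFP966 mice, against -1.54 to 0.16 (median -0.04) in vehicle mice. The lowest RGFP966 mouse lay just below the highest vehicle mouse, and the groups were otherwise separate. The difference was 1.35 (95% interval 0.67 to 2.02, exact permutation p = 0.00175). It lay in the crushed eyes, with 1.15 there and -0.19 in the uncrushed eyes. It was 1.64 in females and 1.18 in males, a shared sign that the naming rule required.

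Of the other genes named for a small limma p in this direction, *Tmem63a*, a mechanosensitive ion channel, rose with crush on average and differed by 0.99 (95% interval 0.32 to 1.67, exact permutation p = 0.0117). *Sh3kbp1*, an adaptor in receptor endocytosis, had a response that ran from -0.03 to 0.36 (median 0.18) in RGFP966 mice, against -0.54 to -0.13 (median -0.29) in vehicle mice. Its groups did not overlap, and the difference was 0.48 (95% interval 0.21 to 0.75, exact permutation p = 0.000583). Non-overlap in this direction was found for 5 genes (0.0317% of genes tested), a smaller share than the 0.000583 that chance assignment of the treatments gives. The others were *Mtrex*, the RNA helicase of the nuclear exosome, *Ufsp2*, the protease that matures UFM1, *Rsad1* and *Jkamp*. Their differences were small, from 0.25 for *Mtrex* to 0.30 for *Rsad1*, and *Rsad1* and *Jkamp* are named after their values were seen. *Epb41l5*, a FERM-domain scaffold protein, differed by 0.45 (95% interval 0.13 to 0.76, exact permutation p = 0.0227), *Mut*, the mitochondrial methylmalonyl-CoA mutase, by 0.49 (95% interval 0.15 to 0.83, exact permutation p = 0.00932), and *Pgm3*, an enzyme of UDP-GlcNAc synthesis, by 0.49 (95% interval 0.15 to 0.83, exact permutation p = 0.00466).

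In the other direction *Ulk4*, a pseudokinase, had the smallest limma p. Across RGFP966 mice it reached 221 to 392 (median 287) normalized counts in crushed eyes and 284 to 519 (median 407) in uncrushed eyes. The vehicle group had 257 to 378 (median 304) in crushed and 199 to 336 (median 253) in uncrushed eyes. The response ran from -1.20 to 0.05 (median -0.35) in RGFP966 mice, against -0.13 to 0.72 (median 0.26) in vehicle mice. Most RGFP966 mice had a lower level in the crushed eye and most vehicle mice a higher one. The difference was -0.70 (95% interval -1.08 to -0.31, exact permutation p = 0.00175), and it came from uncrushed eyes, at 0.66 between treatments there and -0.04 in crushed eyes. *Hyal2*, a hyaluronidase, differed by -0.69 (95% interval -1.13 to -0.26, exact permutation p = 0.00175), *Nxph4*, a neurexophilin, by -0.71 (95% interval -1.17 to -0.26, exact permutation p = 0.0035), *Efna3*, an ephrin ligand, by -1.29 (95% interval -2.09 to -0.49, exact permutation p = 0.00932), and *Aloxe3*, a lipoxygenase family member, by -1.20 (95% interval -1.96 to -0.45, exact permutation p = 0.014). *Slc16a7*, the monocarboxylate transporter MCT2, rose with crush on average and differed by -1.18 (95% interval -1.99 to -0.38, exact permutation p = 0.0175). Without vehicle males C and D, which had its highest responses, the difference was -0.66. *Soat1*, a cholesterol-esterifying enzyme, differed by -0.63 (95% interval -1.08 to -0.18, exact permutation p = 0.0204). *Itpr2*, an intracellular calcium channel, differed by -0.81 (95% interval -1.39 to -0.23, exact permutation p = 0.0315), by -0.13 in females and -1.19 in males. Among crush-raised genes, *Pbxip1*, which encodes a protein that binds PBX factors, differed by -0.26 (95% interval -0.45 to -0.07, exact permutation p = 0.00466), with a response of 0.62 in RGFP966 mice and 0.88 in vehicle mice.

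RGFP966 acts on the HDAC3 protein, so RNA of its gene does not test the inhibition, and whether HDAC3 was inhibited in these retinas was not measured here. *Hdac3* (mean 1390 normalized counts) had a difference of -0.01 (95% interval -0.37 to 0.35, exact permutation p = 0.955), and the 7 tested genes of the HDAC3 corepressor complex a median difference of -0.02. *Cops2*, a corepressor-associated subunit of the COP9 signalosome, had 0.26 (0.01 to 0.52, exact permutation p = 0.06). The 10 other histone deacetylases had a median of -0.03. The 24 cholesterol biosynthesis genes, of which 15 fell and 1 rose with crush, had a median response of -0.22 in RGFP966 mice and -0.31 in vehicle mice and a median difference of 0.02.

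Transcripts of mitochondrial DNA and of red blood cells ran in the opposite direction to the interferon genes. All 13 mitochondrially encoded genes had a positive difference (median 0.27, or 0.10 after quantile normalization, 0.14 without vehicle female C and 0.17 without RGFP966 male B). *mt-Atp8*, a subunit of ATP synthase, had the largest. The RGFP966 group had 1563 to 2594 (median 2038) normalized counts in crushed eyes and 1218 to 2484 (median 1837) in uncrushed eyes. Across vehicle mice the values were 1253 to 2186 (median 1547) in crushed and 1642 to 3981 (median 2352) in uncrushed eyes. Its response ran from -0.05 to 0.36 (median 0.02) in RGFP966 mice, against -1.21 to 0.18 (median -0.47) in vehicle mice, and its difference was 0.67 (95% interval 0.29 to 1.04, exact permutation p = 0.00466). Nuclear copies share these sequences: every 31-base word of *Gm10925*, *Gm28437* and *Gm28661* also occurs in mitochondrial transcripts, so reads may be split between copies and the values of this list are uncertain. Of 6 tested red blood cell genes, all had a positive difference, with a median response of -0.10 in RGFP966 mice and -1.34 in vehicle mice and a median difference of 1.22, or 0.74 without RGFP966 female C. Their per-mouse median ran from -3.03 to 2.11 in RGFP966 mice, against -2.98 to 0.17 in vehicle mice. In uncrushed eyes their median difference between RGFP966 and vehicle was -1.24, against 0.01 in crushed eyes. *Hba-a2*, a haemoglobin chain with a near-identical copy, differed by 1.34 (95% interval 0.03 to 2.64, exact permutation p = 0.105). The part of blood in other results was not tested.

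**Figure D5:**
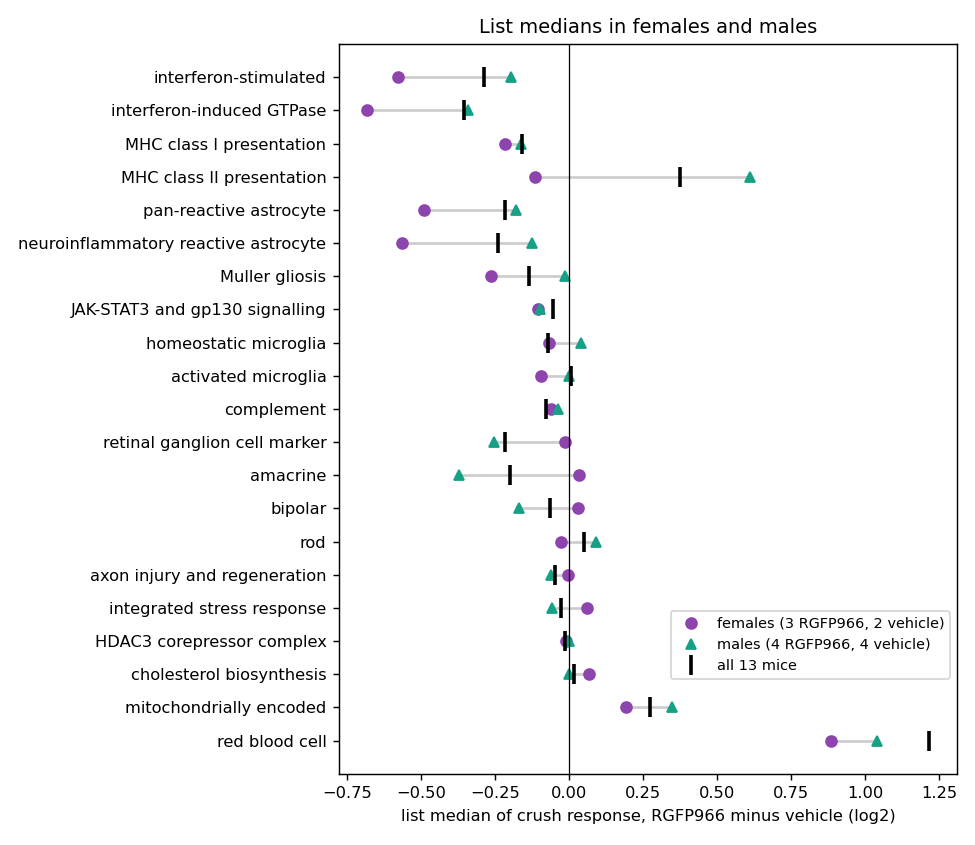
Median difference of crush responses (x axis, RGFP966 minus vehicle, log2) of 21 gene lists in females (circles), males (triangles) and all 13 mice (bars). Interferon-stimulated and astrocyte lists lie farther from 0 in females, ganglion cell (-0.25 in males) and amacrine lists in males.

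Among lists from other tissues of the eye, the lens list varied widely between mice. It had a per-mouse median from -4.60 to 2.88 in RGFP966 mice, against -4.17 to 2.72 in vehicle mice, with a median difference of 0.13, and the retinal pigment epithelium list a median difference of 0.15, with 10 of 11 members higher. Lists for the cell cycle, immediate early genes, heat shock, the circadian clock, fatty acid oxidation, glucocorticoid response, extracellular matrix, endothelium and p53 had median differences between -0.06 and 0.05, close to the -0.0011 over all genes tested.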

How the data were processed

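The authors deposited 1 table of signal with 28 columns, described as counts normalized with DESeq2. Per the submitters' processing notes, kallisto 0.46.1 and mm10 were used, and no DESeq2 version is given there. Within 0.1 of whole numbers lay 13.9 to 70.9% of the low values per library (median 40.4%), so whole reads were not recovered and no count model was run. A pair of columns (2) shared a repeated name and was not used, and 26 entries whose symbols had become calendar dates (0.115% of the total) were left out. Transcripts of X inactivation are not reported here.

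Fold changes are on the log2(value + 1) scale, which understates changes of low genes. Genes with a mean of at least 10 over the 26 libraries were kept. Each mouse's crushed minus uncrushed difference was fitted with limma 3.58.1 (R 4.3.3) with 1 mean per treatment and a trended empirical Bayes prior, and adjusted p-values (Benjamini-Hochberg, over every gene compared) had a threshold of 0.05. Treatment differences within crushed and within uncrushed eyes came from a limma fit of the 26 libraries with 4 groups and sex. Tests were two-sided, and intervals are limma's 95% intervals. The fit was also run on simulated data with noise independent between genes, and no result given here rests on that run.

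The labels pair the samples, since both eyes are from the same animal. Deviations of a mouse's eyes from their group means correlated at -0.20 to 0.34 (median 0.12), over 0.1 in 8 of 13 mice. The p-values measure the spread between mice. No label or header names a batch.

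The members and gene lists were chosen with earlier results of these data known. The naming rule took the 12 genes with the smallest p in each direction (mean of 50 or more, differences of 1 sign in females and males, no Gm or Rik symbols), 6 in each direction among crush-changed genes, 2 per list and a fixed set of glial, neuronal and immune genes. Some genes that it names are not given. Exceptions are marked in the text, and *Tgtp2* and the mitochondrial copies are named only for shared sequence. Promoter windows are from RefSeq (GRCm38.p6), positions from GENCODE vM21 (GRCm38).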

Additional observations from a re-analysis of the deposited data

Results flagged for a closer look

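Crush responses within the 7 RGFP966 mice and within the 6 vehicle mice were checked for 1 mouse far from the others of its group. Of 226 groups of values checked, 17 had such a mouse, where chance alone gives about 5% of groups. Values are log2 responses, and no explanation was tested.

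Among RGFP966 mice, female B had a *Lcn2* response of 0.97, above the others (-0.37 to 0.03), and male B an *Edn2* response of 5.15 (others 2.35 to 3.46). Male C was low for *Fgf2* at 1.27 (others 1.79 to 2.08) and for the median of the cell cycle list at -0.39 (others -0.03 to 0.21).

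Among vehicle mice, male D stood apart most often. Its responses were 0.30 for *Vim* (others 0.70 to 0.93), 2.29 for *Olfml3* (others 1.06 to 1.42) and 3.65 for *Sprr1a* (others 5.77 to 7.03), with medians of -0.80 for the rod list (others -0.24 to -0.05) and -0.42 for the heat shock list (others -0.03 to 0.13). Female C had -0.33 for *Rsad1* (others -0.00287 to 0.15) and 1.27 for *Soat1* (others 0.20 to 0.57). Male A had -3.29 for *Gpnmb* (others 0.63 to 2.35) and -1.43 for the skeletal muscle list (others -0.27 to 0.37). Female A had 1.65 for the MHC class I list (others 0.66 to 0.92) and -4.17 for the lens list (others 0.17 to 2.72). Male B had 2.31 for *Ifih1* (others 0.93 to 1.42), and male C 0.75 for the horizontal cell list (others -0.11 to 0.07).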

How the results depend on the processing

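Limma called 0 differences of response under each of the 27 alternatives, and the smallest adjusted p of any was 0.269, in females alone. The count at an unadjusted p under 0.05 was 300, and 673 without the filter on the mean (25651 genes tested), 644 in females alone, 587 with array weights and 270 to 439 when 1 mouse at a time was left out, the highest without RGFP966 male C. Without vehicle males C and D, an alternative chosen after seeing the data, it was 427. Crush-changed genes numbered 1694, and 612 in males alone and 602 in females alone, which hold fewer mice, and 1352 to 1808 with 1 mouse left out. The median ratio of responses lay between 0.829 and 0.944 with 1 mouse left out. Without the replicate block, that is with the paired eyes as separate libraries, there were 0 differences called, 327 genes at an unadjusted p under 0.05 and 1855 crush-changed genes.

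Of 69 named genes, 52 kept the sign of their difference under every alternative that tested them, as did 14 of 44 list medians (*Atoh7*, *Th*, *Tgtp1*, *Cxcl10*, *Aif1* and *Sprr1a* were not tested with a mean of at least 50). Genes named for the smallest p had to have 1 sign in females and males, so theirs could not turn with 1 sex alone. Their small p also makes a turn with 1 mouse left out unlikely, so the 52 do not measure stability. In males alone the sign turned for *B2m* (0.083), *Osmr* (-0.17), *Rbpms* (-0.24), *Ecel1* (0.13), *Sprr1a* (0.20), *Atf3* (-0.13) and *Pdgfra* (0.013), and in females alone for *Serpina3n* (-0.61), *C3* (0.60), *Clec7a* (-0.88), *Ctss* (-0.060), *Sox11* (0.31), *Hdac3* (0.12), *Cops2* (-0.011) and *Vgf* (0.044). It also turned for *Rbpms* after rescaling (-0.0061), for *Atf3* (-0.047) and *Hdac3* (0.064) with array weights, and for *Pou4f1* (0.060), *Atf3* (-0.0085) and *Hdac3* (0.039) without vehicle males C and D. With 1 mouse left out, the sign turned for 10 genes. Without RGFP966 male A it did for *Sprr1a* (0.0036) and *Hdac3* (0.058), without RGFP966 male B for *C3* (0.055), *Ctss* (-0.038), *Nefl* (0.012) and *Rbpms* (-0.022), without RGFP966 male C for *Osmr* (-0.0030) and *Hdac3* (0.074), and without RGFP966 female C for *Rbpms* (-0.11) and *Ecel1* (0.089). Among vehicle mice it did so without female A for *B2m* (0.049) and *C3* (0.014), without female C for *Osmr* (-0.046), *Ctss* (-0.042) and *Rbpms* (-0.12), without male A for *Ecel1* (0.040) and *Hdac3* (0.0045), without male B for *Rbpms* (-0.072) and *Ecel1* (0.22), without male C for *Ctss* (-0.0091) and *Nefl* (0.060), and without male D for *Atf3* (-0.026) and *Hdac3* (0.088). The cause was not tested. Depth in reads is not given by the normalized values, and the number of mice sets the intervals.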
